A study of Mus musculus with 50 samples.

Results

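Duox1, Duox2, Duoxa1, Duoxa2 and Nox4, the genes through which the thyroid makes hydrogen peroxide, were followed across 50 thyroid libraries of the mouse. They were chosen by symbol: both dual oxidases, the maturation factor of each, and Nox4. All 5 were found, each under 1 Ensembl ID, among 52636 listed genes, of which 38478 had at least 1 count, and none of the 5 was at 0 in any library. The IDs were ENSMUSG00000033268 for Duox1, ENSMUSG00000068452 for Duox2, ENSMUSG00000027224 for Duoxa1, ENSMUSG00000027225 for Duoxa2 and ENSMUSG00000030562 for Nox4.

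Thyroid hormone is built on thyroglobulin, the product of Tg, at the apical surface of the follicular cells. There iodide is oxidised and bound to the protein, a reaction that consumes hydrogen peroxide. DUOX2 and DUOX1 are the NADPH oxidases of that membrane which release the peroxide into the follicle. DUOXA2 and DUOXA1 are their partner proteins, without which the oxidases stay in the endoplasmic reticulum, and loss of DUOX2 or DUOXA2 is a known cause of congenital hypothyroidism. NOX4 is a constitutively active NADPH oxidase of internal membranes that has been described in thyrocytes and also in fibroblasts, vascular smooth muscle and endothelium, and DUOX1 is also made by airway epithelium.

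The animals were male C57BL/6 mice with no engineered allele named in the labels, aged 10 to 14 weeks in the treatment protocol and 10 to 12 weeks in the series description. Each was given antibody once, by the intraperitoneal route, and the RNA came from the whole thyroid. The control was an antibody to ragweed (RW, an isotype control) at 40 mg/kg. In the aJ1aJ2 groups the ligands of Notch were blocked, with 20 mg/kg of an antibody to Jag1 and as much of one to Jag2. In the aN1aN2 groups the receptors were blocked, Notch1 with 5 mg/kg and Notch2 with 10 mg/kg, and aN1aN2aN3 added 20 mg/kg of an antibody to Notch3. There were 10 groups of 5 libraries: RW, aJ1aJ2 and aN1aN2 at 15 hours and again at 5 days, RW and aJ1aJ2 in a first set at 7 days, and aJ1aJ2 and aN1aN2aN3 in a second set at 7 days, which has a separate series of sample IDs and no RW group among the libraries analysed here. The authors' deposited FPKM values were scaled in 2 blocks of libraries. The aN1aN2 libraries at 15 hours fall in the block of the 5-day libraries, and RW and aJ1aJ2 at 15 hours in the other. Their sample IDs also run on into those of the 5-day libraries. Antibody and any batch therefore cannot be told apart in comparisons that use aN1aN2 at 15 hours. Injections of thyroid hormone are mentioned in the series description, but no label says which mice received them, and they were not used as a factor. The labels number the thyroids of a group and do not say in words that each came from its own animal, so p-values measure the spread between these samples. The comparisons ask whether blocking Notch ligands or receptors alters the peroxide-generating genes of the adult gland.

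Total counts were 15271242 to 52835846 per library. Levels are given in CPM, the read count of a gene scaled to the TMM-normalised size of its library. Markers of follicular cells were present in every library, and Tg took 7.37 to 42.4% of the counts in 38 of the 40 libraries outside the second 7-day set. The other 2 were RW replicate 3 and aJ1aJ2 replicate 3 at 5 days, with 0.450% and 2.39%, and skeletal muscle markers summed to 210312 CPM in the first of them. In the second 7-day set Tg took 1.15 to 6.5% of the counts in all 10 libraries. Because the gland was sequenced whole, fewer follicular cells and less RNA of a gene per follicular cell cannot be told apart from a level alone. Levels were therefore also set against 4 transcription factors of the follicular cell, Pax8, Nkx2-1, Foxe1 and Hhex. The geometric mean of their CPM + 0.5 is called the follicular reference below, and a share of it is the CPM + 0.5 of a gene divided by that mean.

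The 4 dual oxidase genes lie together on chromosome 2 as head-to-head pairs. In the RefSeq annotation of GRCm38.p6, Duox2 (minus strand) and Duoxa2 (plus strand) start 673 bases apart, and Duox1 and Duoxa1 start 1942 bases apart. The exons of Duoxa1 and Duoxa2 overlap by 682 bases on opposite strands in the gene models used here. The sources used here do not say whether reads were counted by strand, so counts of these maturation factors are uncertain where they share sequence. The 250 bases before the start of Duox2 and of Duoxa2, a pair whose levels correlated across the libraries of a group (values below), are printed 5′ to 3′ on the strand of each gene, from RefSeq GRCm38.p6. Capitals mark the matches of a search of both strands for 3 motifs. These were the Nkx2-1 core motif CTCAAG, the TATA box motif TATAAA and, for CSL, which is the DNA-binding partner of Notch, the core motif GTGGGAA. The Duox2 window is chr2:122298228-122298477, minus strand, and the Duoxa2 window is chr2:122298650-122298899, plus strand.
Duox2: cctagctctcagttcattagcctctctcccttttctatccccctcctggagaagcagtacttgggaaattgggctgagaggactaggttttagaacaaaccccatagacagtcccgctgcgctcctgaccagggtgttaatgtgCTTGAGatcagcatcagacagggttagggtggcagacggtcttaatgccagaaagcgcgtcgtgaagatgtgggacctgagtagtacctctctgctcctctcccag
Duoxa2: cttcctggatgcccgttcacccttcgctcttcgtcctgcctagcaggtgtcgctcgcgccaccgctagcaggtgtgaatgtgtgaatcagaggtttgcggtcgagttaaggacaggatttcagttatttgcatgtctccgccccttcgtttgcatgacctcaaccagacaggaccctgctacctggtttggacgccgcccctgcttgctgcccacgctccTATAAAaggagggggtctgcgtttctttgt
CTCAAG was found once before Duox2, on the opposite strand (read as CTTGAG), 106 bases before the start. TATAAA was found once before Duoxa2, 30 bases before the start. GTGGGAA was found before neither, and of the 5 genes only Nox4 held it, 92 bases before its start. Among 32851 promoters of the same length, from 250 bases before to 50 bases after the start, 15.9% held CTCAAG, 13.6% held TATAAA and 6.4% held GTGGGAA, so these matches describe the letters and not sites in use.

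Per kilobase of exon, the scale on which different genes can be set side by side, Duoxa2 was the most abundant of the 5 and Duox1 the least. Median levels over the 50 libraries were 16.3 CPM per kilobase for Duoxa2, 6.32 for Duox2, 1.07 for Duoxa1, 0.669 for Nox4 and 0.284 for Duox1. Duoxa2 exceeded Duox2 and Duoxa1 in 50 of 50 libraries, and Duox2 exceeded Duox1 in 49 of 50. Duox2 exceeded Duoxa1 in 39 of 50 libraries and Nox4 in 40 of 50, and Duoxa1 exceeded Nox4 in 40 of 50. In counts, the median library held 1050 reads of Duox2, 653 of Duoxa2, 158.5 of Nox4, 118.5 of Duoxa1 and 38 of Duox1. The lowest count of any member was 2, for Duox1 in aN1aN2aN3 replicate 3, which limits every statement on Duox1.

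**Figure D1:**
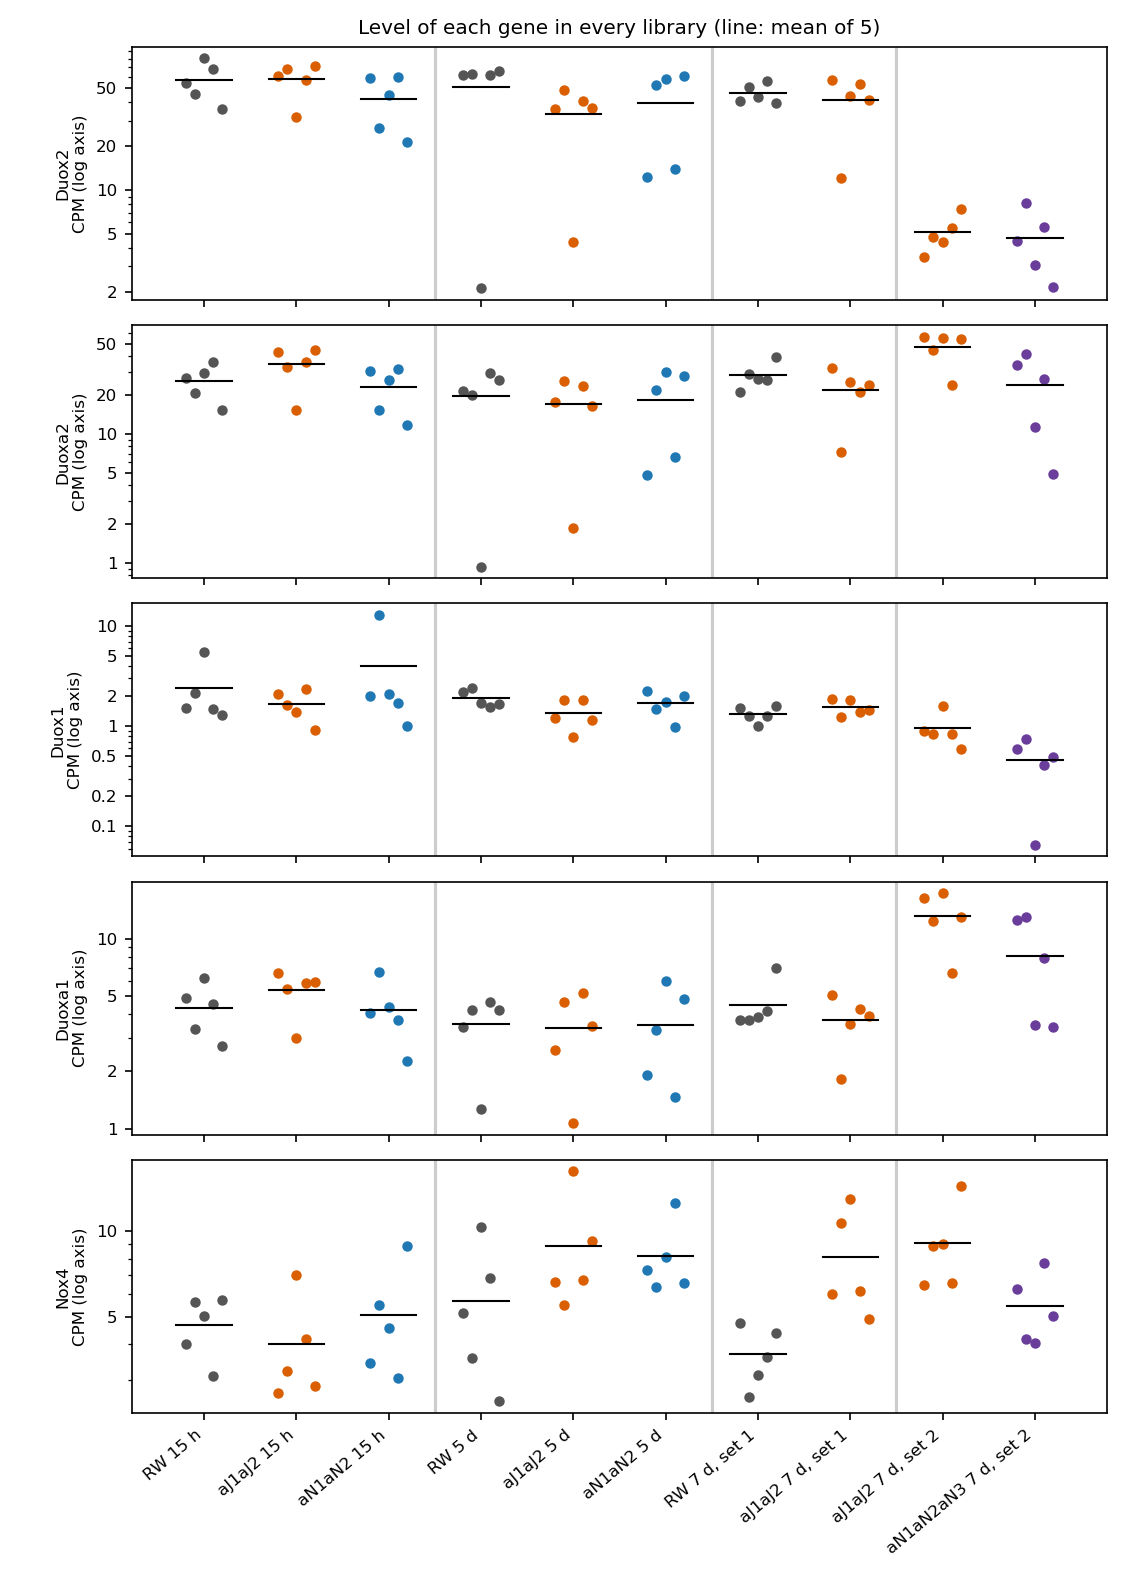
Level of each of the 5 genes in each of the 50 libraries, in CPM on a log axis, by group of 5 libraries; points are libraries and lines are group means. Duox2 and Duoxa2 run between 20 and 80 CPM in most libraries, RW replicate 3 and aJ1aJ2 replicate 3 at 5 days lie far below, and Duox2 alone is near 5 CPM throughout the second 7-day set.

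Duox2, the main oxidase of the gland, had similar levels in the 3 groups at 15 hours. It stood at 54.5, 46.0, 80.2, 68.0 and 36.0 CPM in RW, at 61.3, 68.4, 32.0, 57.0 and 71.0 in aJ1aJ2 and at 59.3, 26.8, 44.8, 60.0 and 21.3 in aN1aN2, and all 3 ranges overlapped. Its partner Duoxa2 stood at 27.0, 20.5, 29.5, 35.8 and 15.1 CPM in RW, at 43.4, 33.0, 15.4, 35.9 and 44.7 in aJ1aJ2 and at 30.6, 15.4, 26.0, 31.6 and 11.8 in aN1aN2. The libraries low in Duox2 were again low in Duoxa2, namely RW replicate 5, aJ1aJ2 replicate 3 and aN1aN2 replicates 2 and 5. By edgeR's quasi-likelihood test with Benjamini-Hochberg adjustment over all genes tested (threshold 0.05), the log2 fold change of Duox2 was -0.0035 (SE 0.30, adjusted p = 0.9998) for aJ1aJ2 against RW and -0.44 (SE 0.30, adjusted p = 0.541) for aN1aN2 against RW. For Duoxa2 they were 0.40 (SE 0.32, adjusted p = 0.988) and -0.17 (SE 0.32, adjusted p = 0.872). The 95% intervals of the same test ran from -0.65 to 0.64 and from -1.09 to 0.20 for Duox2, so a change of up to 0.64 log2 units either way for aJ1aJ2 and a fall of up to 1.09 for aN1aN2 were within them.

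Duoxa1, Duox1 and Nox4 likewise overlapped between all groups at 15 hours. Duoxa1 ranged over 2.72 to 6.22 CPM in RW, 3.00 to 6.61 in aJ1aJ2 and 2.26 to 6.71 in aN1aN2. Nox4 ranged over 3.08 to 5.72 CPM in RW, 2.69 to 7.03 in aJ1aJ2 and 3.04 to 8.89 in aN1aN2. Duox1 stood at 1.52, 2.17, 5.49, 1.49 and 1.29 CPM in RW, at 2.11, 1.61, 1.39, 2.37 and 0.916 in aJ1aJ2 and at 2.02, 12.9, 2.11, 1.71 and 1.01 in aN1aN2. One library of aN1aN2 and 1 of RW stood far above the other libraries for this gene, and the log2 fold change for aN1aN2 against RW was 0.72 (SE 0.64, adjusted p = 0.656 by edgeR), which turned to -0.50 without aN1aN2 replicate 2. None of the 5 genes passed the test for aJ1aJ2 against RW, where 0.573% of 18513 genes tested did, or for aN1aN2 against RW, where 1.68% did. None passed between aN1aN2 and aJ1aJ2, where 0.13% of genes did. In none of these 3 comparisons was a member's unadjusted p under 0.05, and DESeq2 called 0 of the 5 in each.

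Set against the follicular reference, Duoxa2 was higher at 15 hours in the aN1aN2 libraries than in RW, while its own mean level was not, at 23.1 against 25.6 CPM (n = 5 each, values above). The reference itself was lower there, with a median of 128 CPM in aN1aN2 and 167 in RW, and of its genes Foxe1 averaged 56.4 against 121 CPM, Pax8 287 against 365, Nkx2-1 130.4 against 170.3 and Hhex 61.4 against 66.6. It amounted to 16.5, 16.1, 17.8, 18.9 and 17.1% of the reference in RW, to 19.9, 18.8, 19.8, 17.9 and 18.7% in aJ1aJ2 and to 21.3, 38.6, 20.8, 20.5 and 20.0% in aN1aN2. All 5 aN1aN2 libraries exceeded all 5 RW libraries, while aJ1aJ2 overlapped with RW. At this time aN1aN2 and RW also fall in different scaling blocks, so antibody and any batch cannot be told apart in this difference. The difference was 0.44 in log2 units for aN1aN2 (exact two-sided permutation test, p = 0.00794, the smallest that 5 against 5 allows, adjusted p = 0.0476 over the 30 tests of 5 genes in 6 comparisons, an adjustment that does not cover how the genes were chosen) and 0.14 for aJ1aJ2 (exact permutation p = 0.0476, adjusted p = 0.119). Groups that did not overlap, with aN1aN2 higher, were seen on this scale for 1.84% of all genes tested. They were seen for 6.61% of the 514 genes that tracked the reference across libraries (within-group Pearson r of at least 0.9), and the median difference of those genes was 0.31. The adjusted p rose above 0.05, so that the call was lost, in 6 of the 10 cases with 1 library left out (up to 0.0794). Without aN1aN2 replicate 2 the difference of Duoxa2 was 0.26 (adjusted p = 0.0680 by the exact test), and with Tg as the reference it was 0.22 (exact permutation test, adjusted p = 0.754).

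At 5 days, Duox2 was the lower in relation to the follicular reference after either antibody pair, although its level alone passed no test. Duox2 stood at 61.5, 63.1, 2.11, 62.2 and 66.1 CPM in RW, at 36.0, 48.7, 4.39, 41.2 and 36.6 in aJ1aJ2 and at 12.3, 52.3, 57.9, 13.9 and 61.0 in aN1aN2. The ranges of the groups overlapped. In RW replicate 3, which was rich in muscle RNA, the follicular reference itself was at 3.99 CPM, against 101 to 127 in the other RW libraries. The log2 fold change of Duox2 was -0.60 (SE 0.74, 95% interval -2.19 to 0.98, adjusted p = 0.758 by edgeR) for aJ1aJ2 and -0.38 (SE 0.74, 95% interval -1.96 to 1.20, adjusted p = 0.922) for aN1aN2. Both pairs were set against the same 5 RW libraries.

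As a share of the follicular reference, Duox2 amounted to 61.4, 59.4, 65.4, 55.5 and 52.6% in RW at 5 days. The shares were 33.1, 34.3, 36.4, 26.4 and 33.9% in aJ1aJ2 and 37.2, 46.6, 32.7, 32.9 and 46.0% in aN1aN2. Every library of either antibody pair lay below every RW library, and the muscle-rich RW replicate 3 was the highest of its group. With nothing added to the CPM its share was 62.2% for Duox2 and 27.5% for Duoxa2, still the highest of the RW libraries for either gene. The difference was -0.85 in log2 units for aJ1aJ2 and -0.60 for aN1aN2 (exact permutation test, p = 0.00794 and adjusted p = 0.0476 for each). Duoxa2 amounted to 21.7, 19.1, 35.9, 26.5 and 20.8% in RW, to 16.4, 18.2, 17.6, 15.1 and 15.5% in aJ1aJ2 and to 15.5, 19.8, 17.1, 16.2 and 21.3% in aN1aN2. It was lower by 0.55 log2 units in aJ1aJ2, with no overlap (exact permutation p = 0.00794, adjusted p = 0.0476), and by 0.44 in aN1aN2, with overlap (exact permutation p = 0.0476, adjusted p = 0.119). Leaving out 1 library at a time kept every one of these directions, but calls were lost. The adjusted p of Duox2 rose above 0.05 in 8 of 10 cases for aJ1aJ2 (up to 0.0595) and in 3 of 10 for aN1aN2 (up to 0.0794). That of Duoxa2 for aJ1aJ2 rose above 0.05 in 8 of 10 cases (up to 0.0680).

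**Figure D2:**
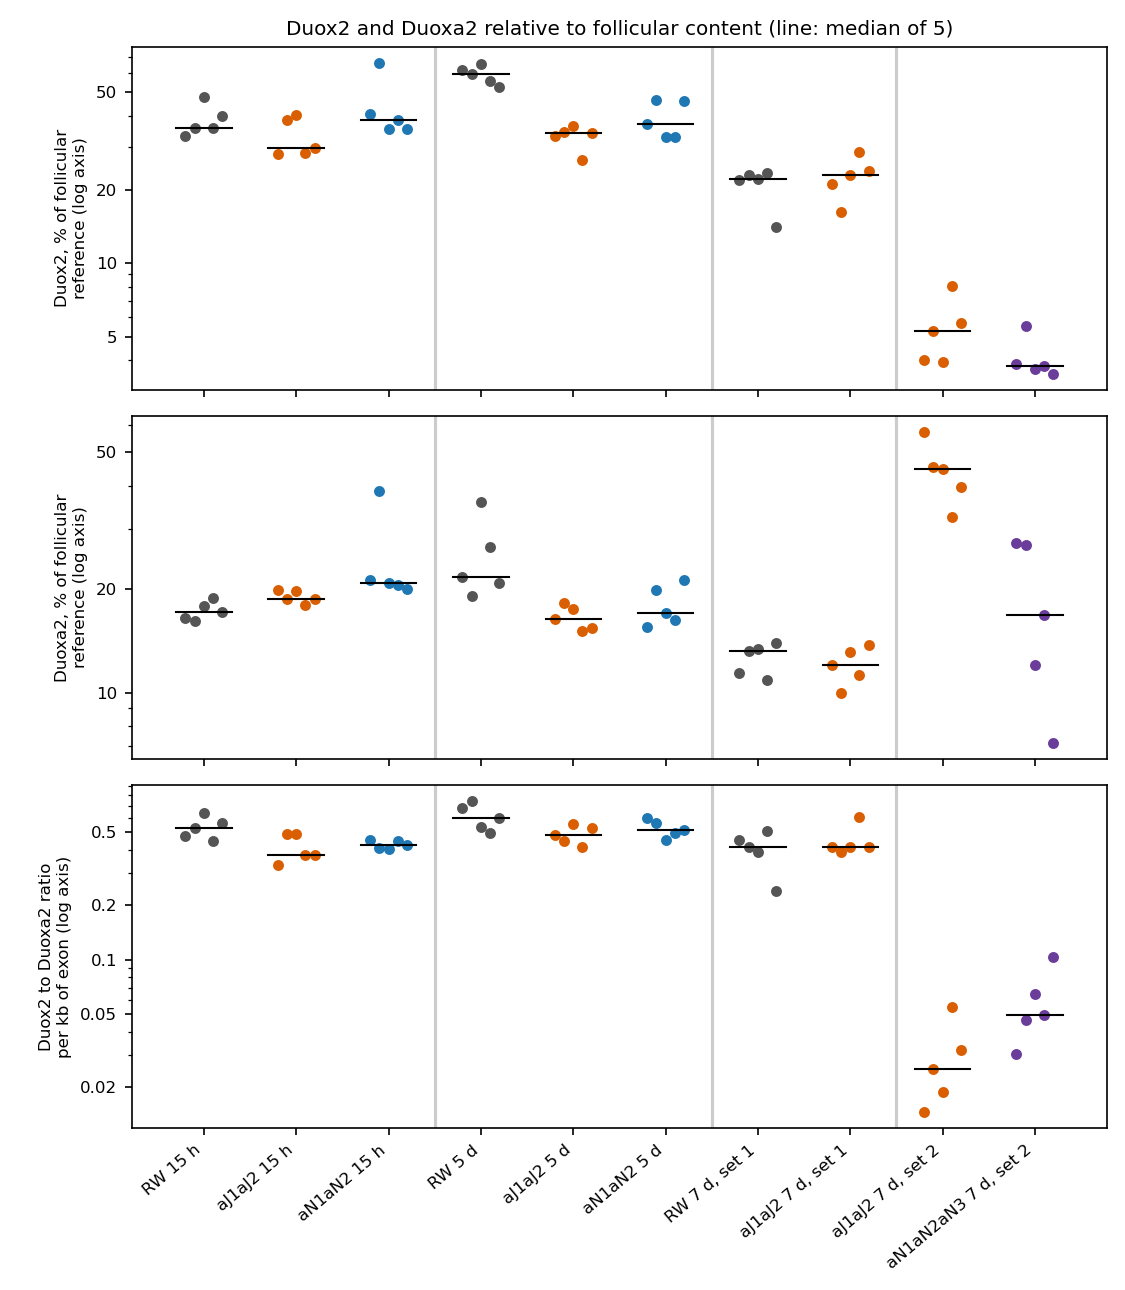
Duox2 and Duoxa2 as a percentage of the follicular reference (CPM + 0.5 of the gene over the geometric mean of CPM + 0.5 of Pax8, Nkx2-1, Foxe1 and Hhex) and the ratio of Duox2 to Duoxa2 per kilobase of exon, on log axes, by group; points are libraries and lines are medians of 5. At 5 days the RW libraries lie at 52.6 to 65.4% for Duox2 and the aJ1aJ2 libraries at 26.4 to 36.4%, and the ratio is 0.0145 to 0.104 in the second 7-day set against 0.236 to 0.744 elsewhere.

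The shift at 5 days was shared in part with other genes that tracked the follicular reference. Groups that did not overlap, with the antibody lower, were seen for 0.304% of all genes for aJ1aJ2 and 0.239% for aN1aN2, but for 6.61% and 4.86% of the 514 tracking genes. The median difference of the tracking genes was -0.36 for aJ1aJ2 and -0.37 for aN1aN2. Duox2 lay below this median in both, with 7.78% and 21% of tracking genes lower than it, and Duoxa2 lay nearer to it, with 27.4% and 40.3% lower. Taken alone as the reference, Pax8, Nkx2-1, Foxe1 and Hhex gave differences of -1.04, -0.92, -0.78 and -0.65 for Duox2 in aJ1aJ2 and of -0.90, -0.75, -0.43 and -0.33 in aN1aN2, of which only those with Pax8 kept an adjusted p under 0.05 by the exact test. With Tg as the reference the differences were -0.50 (adjusted p = 0.608) and -0.46 (adjusted p = 0.198). The levels of the 4 factors themselves did not pass the edgeR test in either comparison, with log2 fold changes of 0.36 for Pax8, 0.35 for Nkx2-1, 0.28 for Foxe1 and 0.039 for Hhex in aJ1aJ2.

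In shares of the reference, Duox2 of the aJ1aJ2 libraries overlapped between 15 hours and 5 days and that of RW was higher at 5 days. How many of all genes were higher likewise in RW was not computed, so this is not a result about Duox2. In CPM the median of Duox2 was 54.5 then 62.2 in RW and 61.3 then 36.6 in aJ1aJ2. The reference itself was lower at 5 days, with medians of 167 then 107 CPM in RW and 203 then 110 in aJ1aJ2, and Foxe1 averaged 121 then 29.2 CPM in RW. At 15 hours the shares were 33.0, 35.8, 47.9, 35.7 and 40.0% in RW, 28.0, 38.5, 40.5, 28.3 and 29.6% in aJ1aJ2 and 40.8, 66.1, 35.5, 38.6 and 35.4% in aN1aN2. In the first set at 7 days they were 21.8, 23.0, 22.2, 23.3 and 14.0% in RW and 21.1, 16.2, 22.9, 28.5 and 23.9% in aJ1aJ2, which overlapped (difference 0.11, exact permutation p = 0.587, adjusted p = 0.678). Each time has its own libraries and the labels name no batch, so time and any batch cannot be told apart in these shares.

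Duoxa1 and Duox1 showed no separation at 5 days. Duoxa1 ranged over 1.28 to 4.67 CPM in RW, 1.07 to 5.18 in aJ1aJ2 and 1.47 to 6.00 in aN1aN2. Duox1 ranged over 1.54 to 2.42 CPM in RW, 0.785 to 1.85 in aJ1aJ2 and 0.991 to 2.27 in aN1aN2, with log2 fold changes of -0.49 (SE 0.28, adjusted p = 0.516 by edgeR) and -0.18 (SE 0.28, adjusted p = 0.907). None of the 5 genes passed the edgeR test for aJ1aJ2 against RW (0.179% of 18434 genes did), for aN1aN2 against RW (0% did) or for aN1aN2 against aJ1aJ2 (0% did). No unadjusted p of a member was under 0.05 in these 3, and DESeq2 called none of the 5. Over all genes, 1848 and 778 had an unadjusted p under 0.05 in the last pair of comparisons, and DESeq2 called 402 and 49. With the follicular reference as a covariate in the edgeR model, 2 of the 5 passed for aJ1aJ2 (Duox2 at -0.83, adjusted p = 0.00166, and Duoxa2 at -0.50, adjusted p = 0.0287) and 1 for aN1aN2 (Duox2 at -0.55, adjusted p = 0.0258). Over all alternatives, the count of all genes called ran from 0 to 3475 for aJ1aJ2 and from 0 to 1507 for aN1aN2. The count under this covariate is not set beside these calls, so they are not shown to be particular to Duox2 and Duoxa2. Without RW and aJ1aJ2 replicates 3 none of the 5 passed in any of the 3 comparisons, while 242, 74 and 3 genes did in all.

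By edgeR's estimates Nox4 was the only one of the 5 that stood higher after aJ1aJ2 than after RW at both 5 days and 7 days, in neither case past the threshold (with library quality weights Duoxa1 did too, by 0.12 and 0.063). At 5 days it stood at 5.14, 3.58, 10.4, 6.84 and 2.52 CPM in RW, at 6.62, 5.49, 16.2, 6.72 and 9.20 in aJ1aJ2 and at 7.31, 6.35, 8.09, 12.6 and 6.56 in aN1aN2. The groups overlapped, and RW and aJ1aJ2 replicate 3, poor in follicular RNA, were the highest of their groups. The log2 fold change was 0.64 (SE 0.40, adjusted p = 0.560 by edgeR) for aJ1aJ2 and 0.52 (SE 0.40, adjusted p = 0.809) for aN1aN2. With library quality weights in limma-voom the aJ1aJ2 value was 0.70 with an adjusted p of 0.0480, beside 3475 genes called in all.

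In the first set at 7 days Nox4 stood at 4.74, 2.60, 3.11, 3.60 and 4.37 CPM in RW and at 5.99, 10.7, 13.0, 6.15 and 4.91 in aJ1aJ2. All 5 aJ1aJ2 libraries exceeded all 5 RW libraries, 8.14 ± 3.49 against 3.68 ± 0.88 CPM (SD, n = 5 each), as was so for 1.46% of 16954 genes tested. The log2 fold change was 1.16 (SE 0.30, 95% interval 0.51 to 1.81), with an unadjusted p of 0.00236 and an adjusted p of 0.185 by edgeR, and DESeq2 gave 1.17 with an adjusted p of 0.0130. Fibroblast markers summed to 502 to 813 CPM in RW and 562 to 874 in aJ1aJ2, and smooth muscle and pericyte markers to 337 to 526 and 241 to 537, so both ranges overlapped. Within the fibroblast sum, Pdgfra, Dcn and Lum had a median of 304 CPM in RW and 437 in aJ1aJ2. The collagen genes Col1a1, Col1a2 and Col3a1 went the other way, with medians of 259 and 180. Skeletal muscle markers had medians of 4087 CPM in RW and 8864 in aJ1aJ2. The part of tissue makeup in the level of Nox4 was not tested. The aJ1aJ2 effect on Nox4 was larger at 7 days than at 15 hours by 1.38 log2 units (SE 0.50, unadjusted p = 0.00930, adjusted p = 0.417 by edgeR), which is not a call.

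The other 4 genes overlapped between RW and aJ1aJ2 in the first set at 7 days. Duox2 stood at 41.1, 50.8, 43.8, 56.5 and 39.8 CPM in RW and at 57.3, 12.1, 44.2, 53.7 and 41.7 in aJ1aJ2, where replicate 2 was low (muscle markers summed to 92381 CPM in it and Tg took 8.87% of its counts). Duoxa2 stood at 21.2, 28.9, 26.4, 26.1 and 39.6 CPM in RW and at 32.4, 7.27, 25.0, 20.9 and 23.8 in aJ1aJ2, with the same library low. Duoxa1 ranged over 3.72 to 6.97 CPM in RW and 1.82 to 5.08 in aJ1aJ2, and Duox1 over 1.00 to 1.59 and 1.23 to 1.86. None of the 5 passed the edgeR test, which called 0% of genes (1968 had an unadjusted p under 0.05, Nox4 among them). DESeq2 called 417 genes and 1 of the 5, Nox4.

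Across libraries Nox4 went with stromal rather than follicular markers. After each group's mean was removed, its log2 level correlated with the summed fibroblast markers (Col1a1, Col1a2, Col3a1, Pdgfra, Dcn and Lum) with r = 0.811 and with smooth muscle and pericyte markers with r = 0.727 over 50 libraries, and with the follicular reference with r = -0.588. Without RW and aJ1aJ2 replicates 3 at 5 days these were 0.771, 0.686 and -0.444. The 5 genes most like Nox4 by this measure were Serping1, Ogn, Sulf1, Fbln5 and Pcolce2, with r from 0.813 to 0.862; Ogn, Fbln5 and Pcolce2 encode proteins of the extracellular matrix. These correlations share libraries, depth and tissue makeup and are descriptions.

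Set against the fibroblast markers, Nox4 was higher after aJ1aJ2 at 5 days in every library, a ratio that was chosen after its values were seen. Its CPM + 0.5 amounted to 0.445, 0.470, 0.393, 0.508 and 0.328% of the summed markers in RW, to 0.949, 1.05, 1.30, 1.01 and 1.23% in aJ1aJ2 and to 0.418, 0.858, 0.891, 0.931 and 0.853% in aN1aN2. The aJ1aJ2 libraries all exceeded the RW libraries, by 1.38 log2 units (exact permutation p = 0.00794, adjusted p = 0.0476 over 6 comparisons), and 4 of 5 aN1aN2 libraries did (0.84 log2 units, exact permutation p = 0.0317, adjusted p = 0.0635). Part of this lay in the markers: the 3 collagen genes summed to 446 to 1617 CPM in RW and 119 to 508 in aJ1aJ2. Against Pdgfra, Dcn and Lum alone, which summed to 421 to 1145 CPM in RW and 451 to 776 in aJ1aJ2, Nox4 was still higher by 0.76 log2 units with no overlap (exact permutation p = 0.00794, adjusted p = 0.0476). On the scale of all 6 markers, 9.47% of genes tested were higher in aJ1aJ2 with no overlap. That share was not computed for Pdgfra, Dcn and Lum alone, so the separation on that scale is not a result about Nox4. In the first set at 7 days the difference was 0.74 with all 6 markers (exact permutation p = 0.0159, adjusted p = 0.0476) and 0.35 with Pdgfra, Dcn and Lum (adjusted p = 0.143), and the groups overlapped in both.

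**Figure D3:**
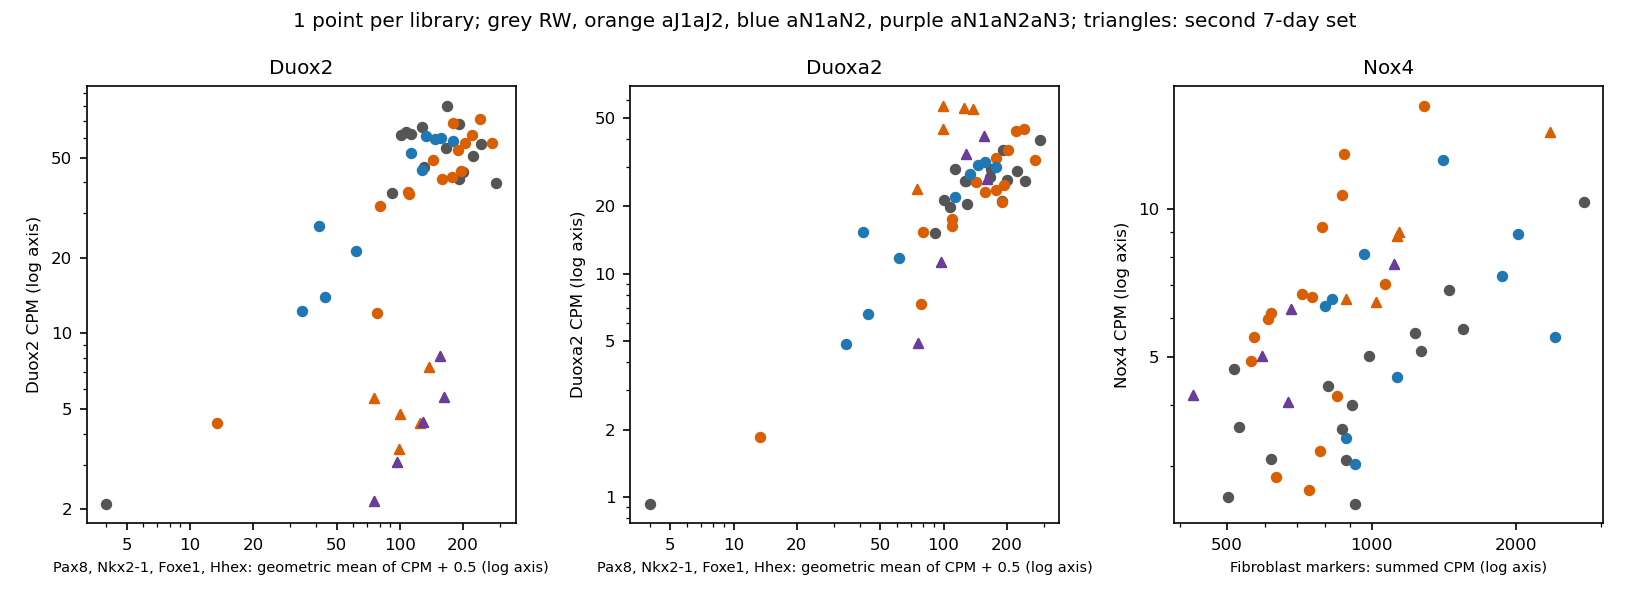
Duox2 and Duoxa2 against the follicular reference, and Nox4 against the summed fibroblast markers, in each of the 50 libraries, all axes in CPM on log scales (CPM + 0.5 for the reference); points are libraries, coloured by antibody, and triangles are the second 7-day set. Duox2 and Duoxa2 rise with the follicular reference, Duox2 of the second 7-day set is displaced below the rest, and Nox4 rises with the fibroblast markers.

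Interaction contrasts over the 40 libraries of the other 8 groups asked whether an antibody effect differed between times, and none of the 5 genes passed in any of the 4. The background was 0.981% of 19676 genes for aJ1aJ2 at 5 days minus 15 hours and 3.14% for aN1aN2 over the same times. It was 0.3% for aJ1aJ2 at 7 days minus 15 hours and 0.676% for 7 days minus 5 days. Apart from Nox4 at 7 days minus 15 hours, no unadjusted p of a member was under 0.05, and DESeq2 called none. For Duox2 the differences between effects ran from -0.63 (SE 0.77) to 0.48 (SE 0.77), so the spread in Duox2 at 5 days left even 2-fold differences between times undetectable. Leaving a p above the threshold here does not show that the effects were equal.

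In the second set at 7 days, all 5 genes had lower mean levels after aN1aN2aN3 than after aJ1aJ2, and none passed the edgeR test, while 19.6% of 18450 genes did. Duoxa2 stood at 34.3, 41.2, 11.2, 26.6 and 4.88 CPM in aN1aN2aN3 and at 56.5, 44.6, 55.2, 23.8 and 54.5 in aJ1aJ2, with overlap. Its log2 fold change was -1.04 (SE 0.50, 95% interval -2.14 to 0.073, adjusted p = 0.166). Duoxa1 stood at 12.5, 12.9, 3.50, 7.91 and 3.44 CPM in aN1aN2aN3 and at 16.5, 12.4, 17.4, 6.57 and 13.0 in aJ1aJ2, a log2 fold change of -0.75 (SE 0.41, adjusted p = 0.209). The libraries lowest in Duoxa2 within aN1aN2aN3, replicates 3 and 5, were the lowest in Duoxa1 as well.

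Duox2 itself was low in both groups of that set. It stood at 4.45, 8.12, 3.07, 5.61 and 2.16 CPM in aN1aN2aN3 and at 3.49, 4.79, 4.42, 5.53 and 7.37 in aJ1aJ2, a log2 fold change of -0.18 (SE 0.35, adjusted p = 0.733 by edgeR). Duox1 stood at 0.594, 0.738, 0.0654, 0.410 and 0.492 CPM in aN1aN2aN3 and at 0.905, 0.837, 1.59, 0.827 and 0.593 in aJ1aJ2, with a log2 fold change of -1.10 (SE 0.48, adjusted p = 0.128). Nox4 stood at 6.27, 4.18, 4.06, 7.72 and 5.03 CPM in aN1aN2aN3 and at 6.47, 8.83, 9.0, 6.57 and 14.4 in aJ1aJ2, with a log2 fold change of -0.79 (SE 0.27, adjusted p = 0.0585). Only for Duox1 and Nox4 was the unadjusted p under 0.05. DESeq2 called Nox4 alone (-0.78, adjusted p = 0.0314), beside 4880 of the 18450 genes tested. With quality weights limma-voom called all but Duox2, beside 8214 genes in all. Stromal markers were lower in aN1aN2aN3 too. Of 6 fibroblast markers 2 fell by the edgeR test (Col3a1 and Lum, list median -2.33), and of 6 smooth muscle and pericyte markers 3 fell (Tagln, Rgs5 and Cspg4, list median -0.90), beside a median of -0.067 over all genes. The fibroblast markers summed to 426 to 1113 CPM in aN1aN2aN3 and 886 to 2347 in aJ1aJ2. Relative to them Nox4 was higher by 0.22 log2 units after aN1aN2aN3, with overlap (exact permutation p = 0.190, adjusted p = 0.238).

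Relative to the follicular reference, Duoxa2 was lower after aN1aN2aN3 in every library of the second set. It amounted to 27.2, 26.8, 12.1, 16.8 and 7.12% of the reference in aN1aN2aN3 and to 57.5, 45.2, 44.6, 32.4 and 39.8% in aJ1aJ2. The groups did not overlap, and the difference was -1.43 in log2 units (exact permutation p = 0.00794, adjusted p = 0.0476). With 1 library left out the adjusted p rose above 0.05, so that the call was lost, in 5 of 10 cases (up to 0.0893). Groups that did not overlap, with aN1aN2aN3 lower, were seen for 5.29% of all genes and 4.47% of the 514 tracking genes, whose median difference was 0.25, and 1.17% of tracking genes were lower than Duoxa2. Pax8 was itself higher after aN1aN2aN3 (log2 fold change 0.78, adjusted p = 0.0222 by edgeR), as was Tg (1.31, adjusted p = 0.0137), and the other 3 factors were not called. With Tg as the reference all 5 genes were lower without overlap, by 1.59 (Duox2) to 2.64 (Duoxa2) log2 units (exact permutation p = 0.00794, adjusted p = 0.0476 each). Because Tg itself was higher, a gene with an unchanged level is lower on this scale. The share of all genes without overlap on it was not computed, so this count is not a result about the 5 genes.

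**Figure D4:**
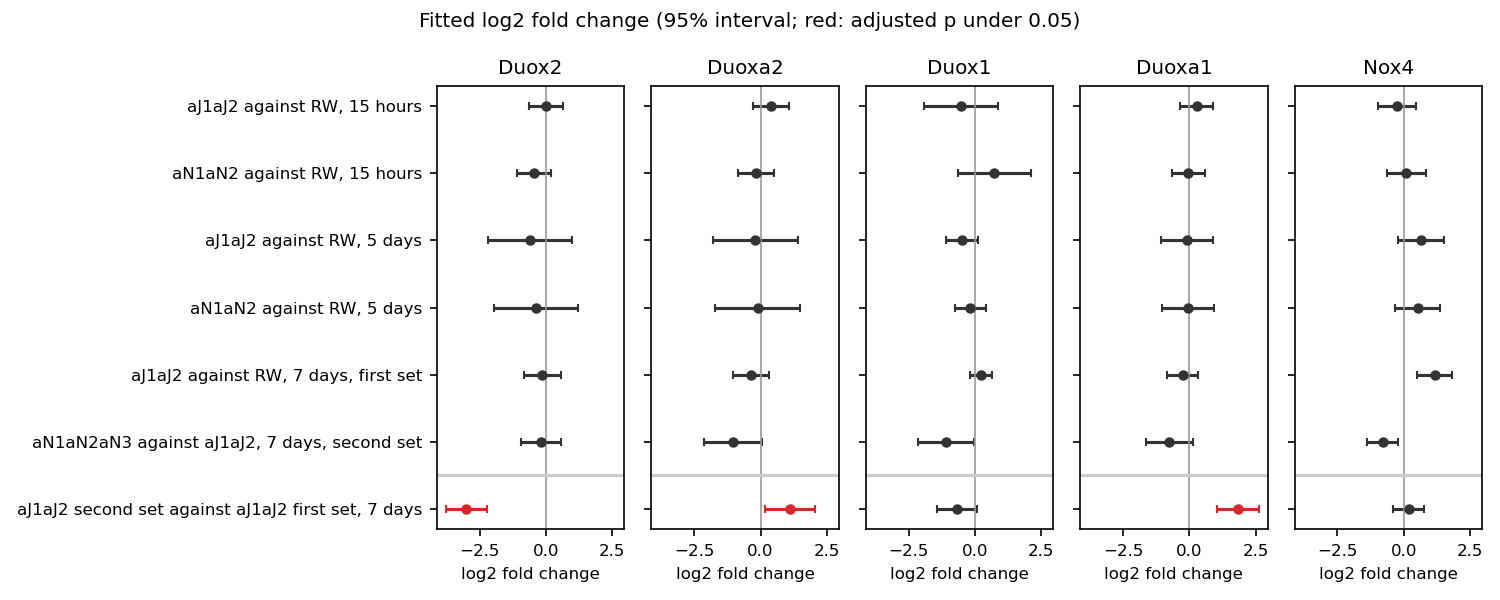
Log2 fold change of each of the 5 genes in the 6 comparisons within a time and set and, in the lowest line, for aJ1aJ2 of the second against the first 7-day set, with 95% intervals of edgeR's quasi-likelihood test (x axis, log2 units; first group minus second group; red marks an adjusted p under 0.05). The interval of Nox4 for aJ1aJ2 at 7 days lies above 0, those of Duox1 and Nox4 lie below 0 in the second set, and the intervals at 5 days are the widest for Duox2 and Duoxa2.

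The aJ1aJ2 treatment was given in both 7-day sets, so the sets could be set side by side in the same treatment, and there 3 of the 5 genes passed the edgeR test. Duox2 was lower in the second set, 5.12 ± 1.46 against 41.8 ± 17.8 CPM (SD, n = 5 each), a log2 fold change of -3.02 (SE 0.37, adjusted p = 6.73e-07), with no overlap. Duoxa1 was higher, 13.2 ± 4.26 against 3.72 ± 1.21 CPM, with no overlap (1.84, SE 0.38, adjusted p = 0.000247), and Duoxa2 was higher, 46.9 ± 13.7 against 21.9 ± 9.21 CPM, with overlap (1.12, SE 0.45, adjusted p = 0.0352). Duox1 (-0.68, SE 0.37, adjusted p = 0.115) and Nox4 (0.18, SE 0.28, adjusted p = 0.597) did not pass. The sets differed widely: 64% of 19570 genes were called, 21.3% were lower and 22% were higher in the second set with no overlap. Over all alternatives the value of Duox2 ran from -3.56 (library quality weights) to -1.30 (log2 of FPKM + 1, which shrinks low values) and that of Duoxa2 from 0.89 to 2.29 (the follicular reference as a covariate). The call on Duoxa2 was lost with a replicate block, without a count filter (adjusted p = 0.0648), in a fit of all 50 libraries (0.0899), and when any 1 of 5 libraries was left out (aJ1aJ2 replicates 2, 4 and 5 of the first set and 1 and 3 of the second, adjusted p = 0.0538 to 0.0798).

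The levels of Duox2 and its maturation factor Duoxa2 thus differed in opposite directions between the sets. Their exon lengths differ, and the difference between the sets followed transcript length over all coding genes (below). Per kilobase of exon, Duox2 stood at a median of 0.37 to 0.60 times Duoxa2 in the 8 groups outside the second set, and at 0.0252 and 0.0496 times in aJ1aJ2 and aN1aN2aN3 of the second set. The ranges of the second set, 0.0145 to 0.104, lay wholly below that of the other 40 libraries, 0.236 to 0.744. Tg (-4.29, adjusted p = 8.74e-09) was lower in the second set as well, Pax8 (-0.66, adjusted p = 0.0242) and Nkx2-1 (-1.40, adjusted p = 6.07e-05) less so, and Hhex was not called (-0.05, adjusted p = 0.878).

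The difference between the sets followed transcript length. Over 15019 coding genes the median log2 fold change was 0.95 where the exons summed to under 2 kilobases, 0.14 at 2 to 4, -0.24 at 4 to 6, -0.51 at 6 to 8 and -0.74 over 8 kilobases (Spearman rho = -0.399 across genes, which are not replicates). The exons of Duox2 sum to 6771 bases, of Duox1 to 5267, of Duoxa1 to 3977, of Duoxa2 to 1592 and of Nox4 to 8471. Within its own length class, Duox2 lay lower than all but 3.38% of genes and Duoxa1 higher than 94.7%, while Duoxa2 (57.3% of its class lower) and Duox1 (34.1%) lay in the middle and Nox4 (81.1%) above it. The part of length in these differences was not tested further. Within the second set the trend was weaker and opposite (rho = 0.155, median -0.34 under 2 kilobases for aN1aN2aN3 against aJ1aJ2), and in the other 5 comparisons within a time rho was -0.014 to 0.092.

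**Figure D5:**
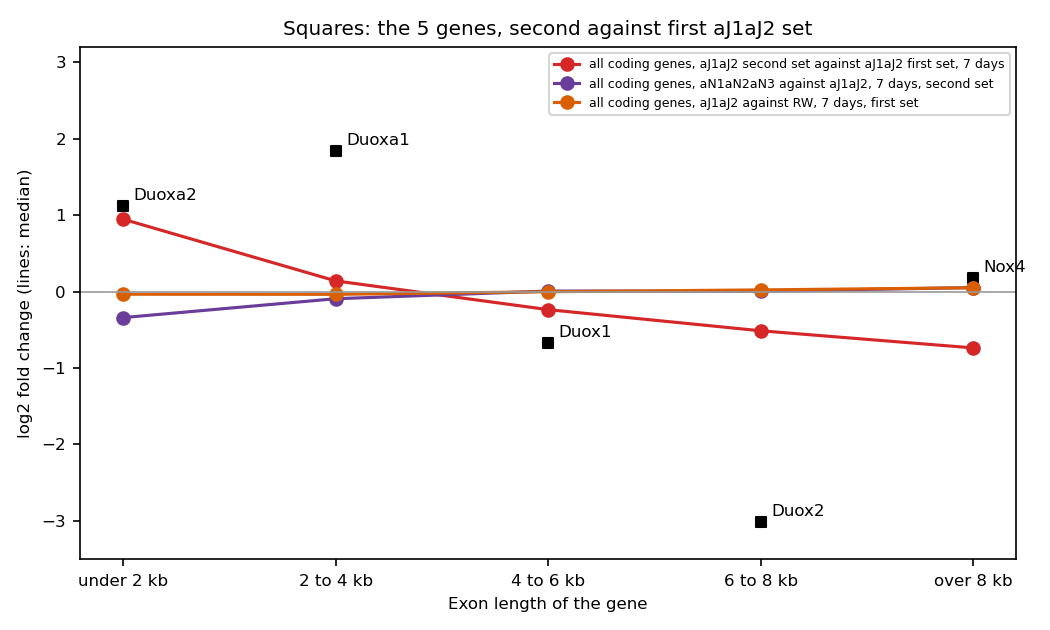
Median log2 fold change of coding genes by summed exon length (x axis, 5 classes in kilobases) for aJ1aJ2 of the second against the first 7-day set and for the contrasts within the second and the first set, with squares for the 5 members between the sets (y axis, log2 units). Between the sets the class medians fall from 0.95 to -0.74, Duox2 lies at -3.02, Duoxa1 at 1.84 and Duoxa2 at 1.12.

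Duox2 and Duoxa2 followed the follicular content of a library closely. After each group's mean was removed, the log2 level of Duox2 correlated with that of Tg with r = 0.968 and with the follicular reference with r = 0.960, and Duoxa2 with the reference with r = 0.943 and with Duox2 with r = 0.930 (50 libraries). Without the 2 libraries at 5 days poor in Tg these were 0.934, 0.915, 0.905 and 0.877 over 48 libraries. The 5 genes most like Duox2 were Afap1l2, Slco2a1, Tg, Slc4a5 and Prom2 (r from 0.967 to 0.981), and those most like Duoxa2 were Slc35b4, Unc119b, Ism1, Slc26a10 and Galns (0.939 to 0.948). Tg is the substrate on which the peroxide acts, and Slco2a1 encodes a prostaglandin transporter.

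The pair Duox1 and Duoxa1 was more loosely tied to the follicular cells. Duoxa1 correlated with the follicular reference with r = 0.721 and with Duoxa2, whose exons it overlaps, with r = 0.863. The genes most like it were Otub2, Nfe2l2, Gm13442, Sox15 and Fadd (0.838 to 0.873), and Nfe2l2 encodes NRF2, a regulator of antioxidant genes. Duox1 correlated with Duoxa1 with r = 0.517 and with the reference with r = 0.0614. The genes most like Duox1 were 2300002M23Rik, Nccrp1, Chit1, Ly6g6c and Defb4, genes of squamous or airway epithelium in part, with r from 0.801 to 0.824, but this likeness rested on aN1aN2 replicate 2 and RW replicate 3 at 15 hours, without which it was 0.504 to 0.619.

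The neighbours of the peroxide generators in hormone synthesis were read from 4 lists. These were 15 NADPH oxidase relatives and partners, 9 genes of hormone synthesis that use or surround the peroxide, 14 enzymes that remove peroxide or superoxide and 9 genes that supply NADPH. In the 5 comparisons against RW no gene of any list passed the edgeR test. Medians of the hormone synthesis list were -0.097 and -0.56 at 15 hours, -0.46 and -0.51 at 5 days and -0.43 at 7 days (aJ1aJ2 then aN1aN2 where both were given), beside -0.0302, 0.0097, -0.0588, -0.0733 and 0.00826 over all genes tested.

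Within the second 7-day set some list members passed, beside the 19.6% of all genes. Of the hormone synthesis list, 1 of 8 tested rose after aN1aN2aN3 (Tg, 1.31) and 1 fell (Slc5a5, the iodide symporter, -1.91, adjusted p = 0.0165 by edgeR). Of the enzymes that remove peroxide or superoxide, 1 of 14 rose and 4 fell by edgeR. Prdx6 rose by 1.46 (adjusted p = 0.00217), whereas Prdx1 (-1.21, adjusted p = 0.00273), Prdx3 (-0.78), Gpx4 (-0.66) and the superoxide dismutase Sod2 (-0.65) fell. Prdx6 and Prdx1 are peroxiredoxins that reduce peroxides. Of the NADPH suppliers, 3 of 8 fell and none rose: Me1, malic enzyme (-1.44, adjusted p = 0.00202), Idh1 (-1.23) and Taldo1 (-0.85). Of the oxidase partners, 1 of 13 rose (Noxo1, 0.74) and 1 fell (Ncf4, -1.14), both subunits of other NADPH oxidases. List medians were -0.39 for oxidase partners, -0.48 for hormone synthesis and -0.36 for enzymes that remove peroxide or superoxide. The median was -0.46 for NADPH suppliers, against -0.067 over all genes. Length and treatment were not separated for these genes.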

How the data were processed

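The authors' deposited table of read counts per gene and their deposited FPKM table cover 50 thyroid libraries, and all measured columns matched a sample. Libraries were sequenced as single-end 50-base reads on an Illumina HiSeq instrument, per the labels' protocols. GSNAP and limma are named in the submitters' processing notes without versions or roles. For the genome build, the annotation, the counting rule and the use of strand: not given in the sources used here. Symbols were matched by Ensembl ID for 52403 of 52636 genes from RefSeq names for the mouse. The authors' FPKM values divide by the genomic span of a gene (within 5% of the span for 87.7% of 18922 genes, and within 5% of the summed exons for 12.6%) and were scaled in 2 blocks of 30 and 20 libraries, so they served as an alternative only.

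The 5 genes and the gene lists were chosen with earlier results of these data known. The test of the counts was the robust quasi-likelihood F-test of edgeR 4.0.16 under R 4.3.3, after scaling by TMM, with Benjamini-Hochberg adjustment over the genes kept by filterByExpr (at least 10 counts in enough libraries and 15 in all) and a threshold of 0.05. The groups of one time and set shared a fit: 15 libraries at 15 hours, 15 at 5 days and 10 in the first set at 7 days and in the second. The sets were compared in 1 fit of 20 libraries, and effects between times as interaction contrasts in a fit of 40. Values relative to the follicular reference are differences of log2(CPM + 0.5), compared by an exact two-sided permutation test over libraries. Intervals of fold changes use the t quantile at the degrees of freedom of the same test. The script was tested on simulated counts. All replicate pairs differed beyond sampling noise (smallest chi-square per degree of freedom 15.6 over 100 pairs). This shows only that no library is a copy of another, and each was counted as 1 sample as the labels list it.

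Alternatives were DESeq2 1.42.0, limma-voom with quality weights and limma-trend on FPKM (limma 3.58.1), other scaling, filters, fits and covariates, a replicate block, other reference genes and leaving out each library. The reference genes taken singly, the pair of 5-day libraries left out, leaving out libraries in the interaction contrasts, and the ratio of Nox4 to fibroblast markers were chosen after seeing the data. Genes named besides the 5 are the reference genes and Tg, up to 4 genes a list that passed, by lowest adjusted p (the closing observations name more, chosen after their values were seen), and the 5 genes with the highest within-group correlation among those with a mean of at least 1 CPM. Figures were drawn with matplotlib 3.10.9 and pandas 2.3.3 under Python 3.11.15. Results for 1 gene of the hormone synthesis list are not reported here. Counting error is small beside the spread between libraries for all but Duox1.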

Additional observations from a re-analysis of the deposited data

Results flagged for a closer look

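Of 50 groups of 5 libraries examined (5 genes in 10 groups), 6 held 1 library that stood far apart from the other 4 by Dixon's criterion, and chance alone gives such a library in about 1 in 20 groups. Duox2 was low in RW replicate 3 at 5 days, at 2.11 CPM against 61.5 in the next library, and in aJ1aJ2 replicate 3 at 5 days, at 4.39 against 36.0. These are the libraries in which Tg took 0.450% and 2.39% of the counts, and skeletal muscle markers summed to 210312 CPM in the first. The part of tissue makeup in these levels was not tested beyond the values relative to the follicular reference, on which RW replicate 3 was at 65.4% for Duox2, above the 52.6 to 61.4% of the other 4 RW libraries, and aJ1aJ2 replicate 3 at 36.4%, above the 26.4 to 34.3% of the other 4 of its group. For Duoxa2, RW replicate 3 was at 35.9% against 19.1 to 26.5%.

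Duox1 was high in aN1aN2 replicate 2 at 15 hours, at 12.9 CPM against 2.11 in the next library, and in RW replicate 3 at 15 hours, at 5.49 against 2.17. Airway epithelium markers summed to 4268 CPM in the first and 268 in the second, while aN1aN2 replicate 5 and RW replicate 5 at 15 hours reached 10848 and 9143 CPM of these markers with Duox1 at 1.01 and 1.29. Their part in the level of Duox1 was not tested. Duoxa1 was high in RW replicate 5 of the first set at 7 days, at 6.97 CPM against 4.18, and Nox4 was high in aN1aN2 replicate 4 at 5 days, at 12.6 CPM against 8.09.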

How the results depend on the processing

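Under the alternatives other than leaving out 1 library, 518 fitted log2 fold changes of the 5 genes kept their direction and their side of the threshold, 16 gained a call, 3 lost one and 38 changed sign, none of the 38 being a called value. The calls on Duox2 and Duoxa1 between the aJ1aJ2 sets kept their direction and their call when any 1 library was left out (-3.26 to -2.88 and 1.66 to 2.01). Except where stated, the cause of a change was not tested. The count of the 5 genes that passed moved from 0 to 1 with DESeq2 for aJ1aJ2 against RW at 7 days and in the second set (Nox4 in each, beside 417 and 4880 of all genes). With limma-voom and library quality weights it moved to 1 for aJ1aJ2 at 5 days and 4 in the second set, beside 3475 and 8214 of all genes. It moved to 1 in the second set with skeletal muscle markers as a covariate, to 0 to 1 there when 1 library was left out, and with the follicular reference as a covariate to 2 and 1 at 5 days (aJ1aJ2, aN1aN2) and 3 in the second set. Counts over all genes moved by more than 1.5 times: over all alternatives they ran from 35 to 265 and 120 to 842 at 15 hours (aJ1aJ2, aN1aN2, against 106 and 311), from 0 to 3475 and 0 to 1507 at 5 days (against 33 and 0), from 0 to 621 at 7 days (against 0) and from 2042 to 8214 in the second set (against 3614). They ran from 9 to 504 and from 0 to 69 for aN1aN2 against aJ1aJ2 (against 24 and 0). For the differences of the aJ1aJ2 effect between times they ran from 94 to 698, 26 to 158 and 49 to 505 (against 193, 59 and 133), and for aN1aN2 from 390 to 1171 (against 618).

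The fitted log2 fold change of Duox2 for aJ1aJ2 against RW at 15 hours, which is close to 0, changed sign to 0.023 with RLE size factors, 0.015 with Tg taken out, 0.026 with no count filter and 0.023 with DESeq2. With limma-voom and quality weights the sign changed at 15 hours for aN1aN2 (-0.017 for Duox1, -0.050 for Nox4), at 5 days for aJ1aJ2 (0.12 for Duoxa1) and aN1aN2 (0.13 for Duoxa1, 0.079 for Duoxa2), at 7 days (0.058 for Duox2, 0.063 for Duoxa1) and in the second set (0.098 for Duox2). With the muscle covariate it changed at 15 hours for aN1aN2 (0.011 for Duoxa1, -0.029 for Nox4), at 5 days for aJ1aJ2 (0.030 for Duoxa2) and aN1aN2 (0.44 for Duox2, 0.28 for Duoxa1, 0.56 for Duoxa2) and at 7 days (0.026 for Duox2). With the follicular covariate it changed at 15 hours for aN1aN2 against RW (-0.14 for Duox1, 0.060 for Duoxa1, 0.28 for Duoxa2, -0.38 for Nox4) and against aJ1aJ2 (0.12 for Duox2, 0.12 for Duoxa2, -0.25 for Nox4), and at 7 days (0.17 for Duox2, 0.063 for Duoxa1, 0.012 for Duoxa2). Limma-trend on log2(FPKM + 0.1) gave 0.11 for Duoxa2 with aN1aN2 at 5 days, and the FPKM alternatives were not run at 15 hours, where the libraries fall in 2 separately normalized blocks. Without both libraries at 5 days that were poor in Tg, aN1aN2 against aJ1aJ2 gave -0.065 for Duox2, -0.20 for Duoxa1, -0.20 for Duoxa2 and 0.22 for Nox4.

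Replicate numbers did not pair the libraries throughout. In each comparison 0 to 4 of 5 same-numbered pairs deviated together with a correlation over 0.1, and 0 to 2 of 5 samples correlated best with their own number. Single pairs reached 0.80 for aN1aN2 against RW at 15 hours and 0.71 for aJ1aJ2 against RW at 5 days. Whether same-numbered libraries were handled together was not tested. With the replicate block 0 of the 5 genes passed in any comparison within a set or difference between times, and 2 passed between the aJ1aJ2 sets, where the adjusted p of Duoxa2 was 0.0638. The block took the count over all genes from 106 to 36 and 311 to 186 at 15 hours, from 33 to 1 for aJ1aJ2 at 5 days, from 3614 to 2100 in the second set and from 133 to 69 for the aJ1aJ2 effect at 7 days minus 5 days. Under it the sign changed for Duox2 with aJ1aJ2 at 15 hours (0.067) and for Duox2 (0.0035), Duoxa1 (0.055) and Duoxa2 (0.27) with aN1aN2 at 5 days.

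With 1 library left out, fold changes that crossed 0 ran, for aJ1aJ2 against RW at 15 hours, over -0.67 to 0.023 (Duox1) and -0.10 to 0.17 (Duox2). For aN1aN2 at 15 hours they ran over -0.50 to 1.28 (Duox1), -0.28 to 0.12 (Duoxa1), -0.30 to 0.012 (Duoxa2) and -0.19 to 0.24 (Nox4). At 5 days they ran over -0.26 to 0.15 (Duoxa1) and -0.49 to 0.090 (Duoxa2) for aJ1aJ2, over -0.31 to 0.15 and -0.41 to 0.13 for aN1aN2, and over -0.057 to 0.45 (Duox2), -0.24 to 0.23 (Duoxa1), -0.20 to 0.33 (Duoxa2) and -0.35 to 0.24 (Nox4) for aN1aN2 against aJ1aJ2. They ran over -0.28 to 0.084 (Duox2) at 7 days, over -0.48 to 0.0038 (Duox2) in the second set and over -0.051 to 0.41 (Nox4) between the aJ1aJ2 sets. For the aN1aN2 effect at 5 days minus 15 hours they ran over -1.48 to 0.34 (Duox1), -0.27 to 0.30 (Duox2), -0.26 to 0.26 (Duoxa1) and -0.27 to 0.31 (Duoxa2). For the aJ1aJ2 effect they ran over -0.54 to 0.21 (Duox1) at 5 days minus 15 hours, -0.32 to 0.078 (Duox2) at 7 days minus 15 hours, and -0.43 to 0.035 (Duoxa1) and -0.47 to 0.14 (Duoxa2) at 7 days minus 5 days.

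Relative to the follicular reference, the count of the 5 genes past the threshold of the exact tests fell to 0 with Tg as the reference at 15 hours (aN1aN2) and at 5 days (both antibody pairs) and rose to 5 in the second set, where Tg itself was higher after aN1aN2aN3. With Pax8 alone it was 1 for aJ1aJ2 at 5 days, and with Nkx2-1, Foxe1 or Hhex alone it was 0 for either pair. When 1 library was left out, the counts ran over 0 to 2 (aJ1aJ2 at 5 days), 0 to 1 (aN1aN2 at 15 hours, aN1aN2 at 5 days, aJ1aJ2 at 7 days) and 0 to 2 (second set). With Tg the sign changed for Duox2 with aN1aN2 at 15 hours (-0.081) and for Duox2 (-0.12) and Duoxa1 (-0.071) at 7 days. At 5 days that of Nox4 changed with Pax8 alone (-0.071 for aJ1aJ2, -0.25 for aN1aN2) and with Nkx2-1 alone (-0.10 for aN1aN2). With 1 library left out, relative values that crossed 0 ran at 5 days over -1.44 to 0.024 (Duox1), -0.98 to 0.068 (Duoxa1) and -0.77 to 1.32 (Nox4) for aJ1aJ2, and over -1.11 to 0.24, -0.83 to 0.068 and -0.47 to 1.24 for aN1aN2. They ran over -0.024 to 0.22 (Duox2) for aN1aN2 and -0.075 to 0.10 (Duoxa1) for aJ1aJ2 at 15 hours, and over -0.027 to 0.22 (Duox2) at 7 days. Against Pdgfra, Dcn and Lum, Nox4 for aJ1aJ2 at 15 hours stood at -0.014. Depth limits Duox1 most, with a median of 38 reads in a library.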

Other observations

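The listed enzymes that remove peroxide or superoxide differed between the 7-day sets in the same treatment. The list includes Sod1, Sod2 and Sod3, which act on superoxide. Of the 14 listed, 10 were higher and 4 lower in aJ1aJ2 of the second set than of the first by edgeR, beside 64% of all genes called in either direction, and their median log2 fold change was 0.72 against 0.089 over all genes. Prdx1, a peroxiredoxin, was higher by 2.10 (adjusted p = 1.52e-08 by edgeR), at 559 ± 107 against 132 ± 12.2 CPM (SD, n = 5 each), and Gpx1, a glutathione peroxidase, by 1.73 (adjusted p = 4.60e-07). Catalase (Cat, -0.68), Txnrd1 (-0.52), Sod1 (-0.48) and the extracellular superoxide dismutase Sod3 (-1.15) were the 4 lower ones.

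Of 13 tested relatives and partners of the NADPH oxidases, 4 were higher in the second set (Nox1, Cyba, Noxo1 and Ncf4) and 1 was lower (Sh3pxd2a, an organizer protein of podosomes, -4.37, adjusted p = 3.34e-08). Among the genes of hormone synthesis, Iyd, the iodotyrosine deiodinase, and Dio1 were higher (1.14 and 1.23), and Tg and Slc5a5 were lower. Of 9 suppliers of NADPH, Idh1 was higher (0.71), and Pgd, Nnt and Tkt were lower (-1.17, -1.79 and -1.89). The medians of these lists were 0.28, -0.39 and -0.36. Transcript length, tissue makeup and the set itself cannot be told apart in these differences.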
